A study of Mus musculus with 25 samples.

Results

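The deposited scaled table of the sorted brain myeloid cells lists 23954 transcripts, of which 4195 carry a symbol that the deposited count table of the same cells does not hold. Of these, 190 averaged at least 100 scaled reads over the 11 sorted libraries and are described here. A scaled read is a read count brought to a total of 10000000 reads per library. The 190 transcripts were chosen by this mean, a measured value, and by no difference between groups. The last rows inside the threshold were Fam120aos at a mean of 101 and Snora78 at 100.8 scaled reads, and the first rows outside it were Gt(ROSA)26Sor at 99.5 and 2810002D19Rik at 98.3. A further 4005 rows fell under the threshold, and 2987 of them had no read in any library. The count table holds 19762 rows, all with RefSeq identifiers of messenger RNAs, whereas 178 of the 190 transcripts have RefSeq identifiers of noncoding RNAs and 12 of messenger RNAs. By the biotypes of RefSeq, 101 are long noncoding RNAs, 51 pseudogenes, 24 genes annotated as protein coding, 7 microRNA loci and 2 small RNAs. The other 5 had no match there.

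The mice were 5XFAD, a transgenic model of Alzheimer's disease. All 11 sorted libraries came from mice given an antibody to the immune checkpoint receptor PD-1, so the sorted cells have no untreated or isotype control. CD11b+ brain cells were split by CD45 into a CD45high gate, which the study names monocyte-derived macrophages, with 2 libraries labelled D14 and 3 labelled D7, and a CD45low gate, named microglia, with 3 libraries at D14 and 3 at D7. The labels do not say from when D is counted, what the ages were, or whether the libraries come from separate animals, so the spread behind each p-value is that of libraries and may be technical. Another 14 libraries of choroid plexus, the tissue that makes cerebrospinal fluid, came from 5XFAD mice given anti-PD-1 (n = 5), IgG control (n = 5) or no treatment (n = 4), and only 2 of the 190 transcripts are in their scaled table.

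Long noncoding RNAs are transcripts without a long reading frame, and many act in the nucleus. Malat1 is an abundant RNA of nuclear speckles, bodies that store splicing factors, and Neat1 is the scaffold on which paraspeckles form. Pseudogenes are copies of genes, and processed ones derive from a spliced messenger RNA, so that short reads may fit the copy and the parent gene alike. A microRNA is cut from a hairpin in a longer transcript and recognises its targets through its seed, the bases 2 to 8. The libraries were made from polyadenylated RNA read near the 3′ end, so a microRNA locus here counts reads of longer transcripts and not the microRNA.

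The 6 microRNA loci for which RefSeq lists a mature sequence (build GRCm38.p6) are shown because 5 of these loci lie within, or copy, the transcript of another gene, as shown by the comparison that follows. Capitals mark the seed. Mir692-2a and Mir692-2b give the same mature microRNA and share its seed, and the other 4 seeds differ from it and from each other.
miR-682 (Mir682, chr13:75645119-75645139, plus strand): cUGCAGUCacagugaagucug
miR-703 (Mir703, chr5:98475616-98475636, minus strand): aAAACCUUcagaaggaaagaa
miR-692 (Mir692-2a, chr4:125504805-125504825, plus strand): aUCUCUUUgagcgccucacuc
miR-678 (Mir678, chr10:76207333-76207354, minus strand): gUCUCGGUgcaaggacuggagg
miR-142b (Mir142b, chr11:87756906-87756925, minus strand): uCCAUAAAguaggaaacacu

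The same stretch, without a single differing base, stands in GENCODE M21 transcripts. The segments below are from Rpl37a, a ribosomal protein, Eef1a1, a translation elongation factor, Ftl1, the ferritin light chain, and Prmt2, an arginine methyltransferase. They are written as DNA.
Rpl37a: ctgcagtcacagtgaagtctg
Eef1a1: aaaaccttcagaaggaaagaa
Ftl1: atctctttgagcgcctcactc
Prmt2: gtctcggtgcaaggactggagg

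Over whole hairpins, 95 of 96 bases of Mir682 were identical to a retained-intron transcript of Rpl37a and all 96 to the processed pseudogene Gm4149. For Mir703, 107 of 109 bases were identical to Eef1a1. For Mir692-2a, 106 of 109 bases were identical to Ftl1 and all 109 to Ftl1-ps1. All 84 bases of Mir678 were identical to Prmt2. The Mir142b hairpin lies opposite Mir142, with 64 bases in common.

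Whole reads were recovered from the scaled values, 100% of which were whole within 0.05 reads. The recovered reads belong to the scaled table and do not all equal the deposited counts. The sorted libraries held between 479616 and 1252215 reads in listed rows. Where a transcript had no read, a level of up to 3 reads, or 15.2 to 44.2 scaled reads, is allowed by counting error alone. The 190 transcripts took 1.54% to 1.73% of the listed reads, with overlapping shares in the CD45high and CD45low libraries. The gates matched their labels in part: all 11 microglia markers were lower and all 9 detected monocyte markers higher in CD45high. The summed level of 9 neutrophil markers was 123783 to 217983 scaled reads in CD45high and 6232 to 61768 in CD45low, with S100a8 at 15019 or more in each CD45high library, so the CD45high gate holds abundant transcripts of another cell type beside those of its label. The highest CD45low value, 61768, belongs to D7 replicate 3, and the other CD45low libraries stood at 6232 to 16017. That library also stood apart on the first principal component, at -41.1 against -66.5 to -62.7 for the other CD45low libraries and 59.6 to 88.3 for CD45high. Microglia markers summed to 6775 to 34046 scaled reads in CD45high and 82151 to 108243 in CD45low, and the CD45high libraries with the lowest and the highest sum were D7 replicate 3 and D7 replicate 1. The part of these cells in the differences between gates was not tested, and in bulk libraries fewer cells of a type and less RNA per cell cannot be told apart.

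Between the gates, 122 of the 190 transcripts differed, 56 higher and 66 lower in CD45high. Among all 8681 rows tested the share called was 60.5%, with 24.4% higher and 36.1% lower, so the transcripts were called about as often as any row. The median log2 difference was -0.12 over the 190 and -0.23 over all rows tested. The test was limma on log2 of the scaled value plus 20, with Benjamini-Hochberg adjustment over all rows and an adjusted p under 0.05. The libraries of the gates did not overlap for 84 transcripts, 43 higher and 41 lower in CD45high, against 39.9% of all rows, 18% higher and 21.9% lower. Without CD45low D7 replicate 3 the counts were 54 higher and 65 lower. A transcript that averaged 100 over all libraries while near 0 in a gate had to be high in the other, so the size of the largest differences is partly set by the threshold.

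The classes were spread over both directions. Of the 101 long noncoding RNAs, 21 were higher and 42 lower in CD45high, with a median log2 difference of -0.35. Of the 51 pseudogenes, 20 were higher and 13 lower, with a median of 0.19, and of the 24 genes annotated as protein coding 8 were higher and 8 lower. Scaling by TMM factors or to equal medians raised the gate difference of the median row by 0.15 or 0.12 on the log2 scale, and under TMM factors 59 transcripts were higher and 57 lower.

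**Figure D1:**
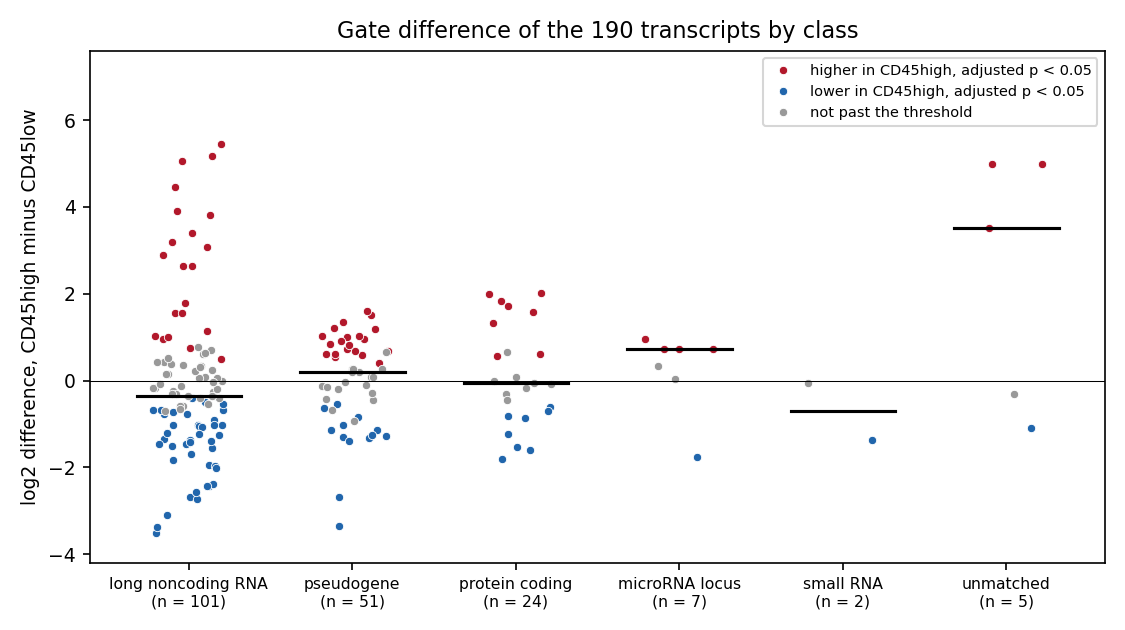
Log2 difference between the gates (CD45high minus CD45low, from the scaled value plus 20) of each of the 190 transcripts, by class. Each point is a transcript, coloured by whether it passed an adjusted p of 0.05, and the bar is the class median, which was -0.35 for long noncoding RNAs and 0.19 for pseudogenes.

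Malat1 was lower and Neat1 higher in CD45high. Malat1 had 5894 and 6909 scaled reads in CD45high at D14, 8861, 12234 and 9878 in CD45high at D7, 12455, 12897 and 13301 in CD45low at D14, and 13067, 13480 and 15284 in CD45low at D7. Every CD45high library stood below every CD45low library. The means were 8755 ± 2499 in CD45high (SD, n = 5) and 13414 ± 982 in CD45low (SD, n = 6), a log2 difference of -0.73 ± 0.109 (SE, adjusted p = 2.69e-05).

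Neat1 had 4395 and 3839 scaled reads in CD45high at D14, 4666, 3706 and 3335 in CD45high at D7, 2140, 2910 and 2419 in CD45low at D14, and 2016, 2648 and 2191 in CD45low at D7. Again the gates did not overlap, with all CD45high libraries on the upper side. The means were 3988 ± 537 in CD45high (SD, n = 5) and 2387 ± 341 in CD45low (SD, n = 6), a log2 difference of 0.75 ± 0.129 (SE, adjusted p = 1.11e-04). Both gate differences passed the threshold under every alternative run.

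**Figure D2:**
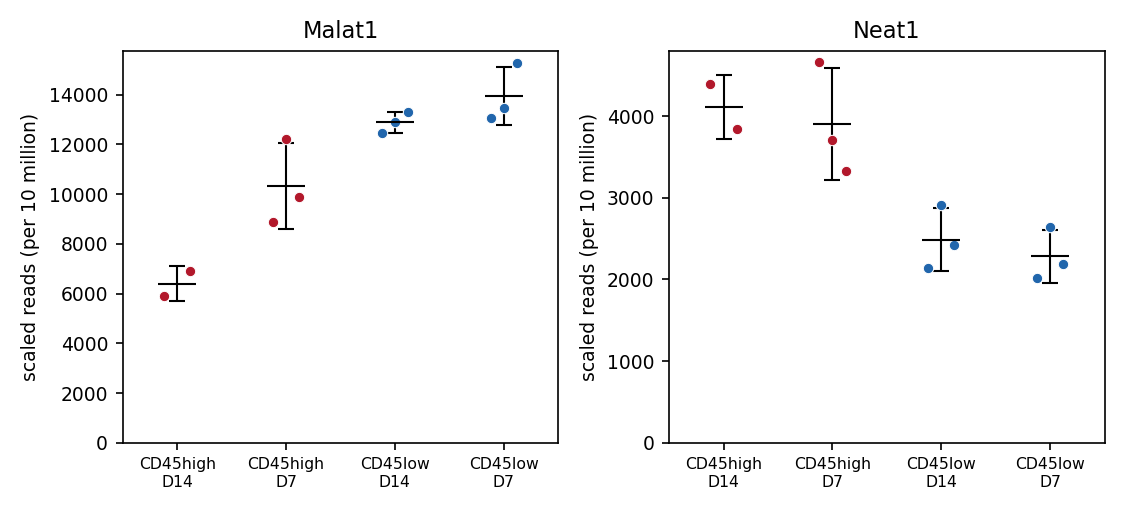
Scaled reads of Malat1 and Neat1 in each sorted library, by gate and D label. Points are libraries, the bar is the mean and the whiskers are the SD; Malat1 lies lower in the CD45high libraries (5894 to 12234) than in the CD45low libraries (12455 to 15284), and Neat1 higher (3335 to 4666 against 2016 to 2910).

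Within each D label the differences were tested separately. Malat1 was lower in CD45high at D14, by a log2 difference of -1.01 ± 0.163 (adjusted p = 1.24e-04), and at D7, by -0.44 ± 0.146 (adjusted p = 0.0182). The D7 call did not hold with TMM factors (-0.25, adjusted p = 0.22), equal medians (-0.28, adjusted p = 0.162), edgeR or DESeq2. It was also lost with the first number of the title as a block (-0.44, adjusted p = 0.0576) and without CD45high D7 replicate 1 (-0.34, adjusted p = 0.0762). Neat1 was higher in CD45high by 0.73 ± 0.192 at D14 (adjusted p = 0.00629) and by 0.76 ± 0.172 at D7 (adjusted p = 0.00156). The D14 call of Neat1 was lost without CD45high D14 replicate 1, at 0.63 with an adjusted p of 0.073.

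Messenger RNAs of proteins of the bodies that hold these RNAs were tested as well, and protein was not measured. Of 20 paraspeckle proteins, all tested, 1 was higher and 6 were lower in CD45high, with a median log2 difference of -0.35, where 24.4% of all rows were higher and 36.1% lower. Nono, a paraspeckle core protein, was higher by 0.48 ± 0.145 (adjusted p = 0.00887) and Hnrnpa1 lower at -1.18 ± 0.203 (adjusted p = 1.03e-04), while Sfpq, which pairs with Nono, gave -0.17 ± 0.199 (adjusted p = 0.485). Of 20 nuclear speckle proteins, none was higher and 10 were lower, with a median of -0.34. In both lists the share called in either direction was below the 60.5% of all rows. The nuclear speckle calls were all in 1 direction, with 10 of 20 lower beside 36.1% lower among all rows.

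Among the transcripts with the largest positive gate differences were long noncoding RNAs that were near 0 in CD45low. Gm10872, now named Mirt2 and described as inducible by lipopolysaccharide in macrophages, had 1051 and 1017 scaled reads in CD45high at D14, 1251, 1231 and 1118 in CD45high at D7, 0, 0 and 5.2 in CD45low at D14, and 11.2, 0 and 26.3 in CD45low at D7. The CD45low values rest on 6 reads in all, against 524 in CD45high. Its log2 difference was 5.46 ± 0.273 (adjusted p = 1.66e-10), a size that depends on the value added before the logarithm and was 6.91 with 5 added and 4.37 with 50. 5830416P10Rik, now Mirt1, had 577 and 355 scaled reads in CD45high at D14, 662, 327 and 492 in CD45high at D7, 0, 25.8 and 26 in CD45low at D14, and 16.8, 0 and 35.1 in CD45low at D7. The gates stood apart again, with a log2 difference of 3.81 ± 0.356 (adjusted p = 1.41e-07).

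F630028O10Rik holds the gene of miR-223, a microRNA known from neutrophils and other myeloid cells. It had 1353 and 859 scaled reads in CD45high at D14, 1178, 817 and 1118 in CD45high at D7, 39.6, 15.5 and 10.4 in CD45low at D14, and 33.6, 15.2 and 96.4 in CD45low at D7. The highest CD45low value was in D7 replicate 3, the library with the highest neutrophil marker sum of its gate. The log2 difference was 4.45 ± 0.319 (adjusted p = 7.41e-09).

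1700047M11Rik and Gm10684 followed Gm10872 in size. 1700047M11Rik ranged from 804 to 1002 scaled reads in CD45high and from 0 to 26.3 in CD45low, with a log2 difference of 5.18 ± 0.285. Gm10684 ranged from 582 to 1030.0 in CD45high and from 0 to 22.4 in CD45low, with 5.06 ± 0.282, and its gene span overlaps that of Jaml, an adhesion molecule of leukocytes listed as Amica1, whose own log2 difference was 6.32 ± 0.256. AI839979 (3.90) and B230208H11Rik (3.41) followed without overlap between the gates. The gene nearest to B230208H11Rik is Stx11, a syntaxin of immune cells, which was higher in CD45high by 4.97 ± 0.249.

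The eosinophil-associated ribonucleases, secreted RNases of the immune system, made up the rest of this group. Ear3 and Ear12 had equal reads throughout, 461 in all, so they are 1 measurement. Ear3 had 1094 and 592 scaled reads in CD45high at D14, 942, 1269 and 944 in CD45high at D7, 0, 0 and 5.2 in CD45low at D14, and 11.2, 5.1 and 61.3 in CD45low at D7. All CD45high libraries lay far above the CD45low libraries, whose highest value was again D7 replicate 3, and the log2 difference was 4.99 ± 0.327 (adjusted p = 2.77e-09). Ear7, with 2 reads over the 6 CD45low libraries and 196 in CD45high, was also higher, at 3.51 ± 0.379.

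**Figure D3:**
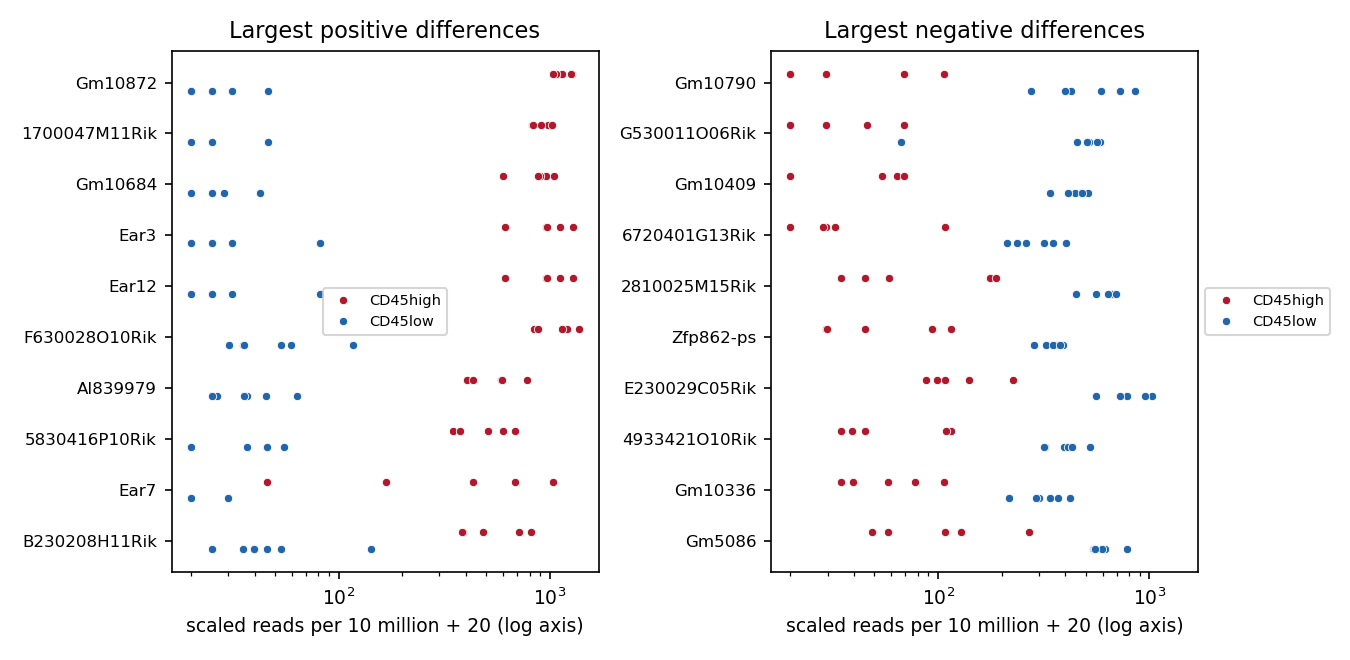
Scaled reads plus 20, on a log axis, of the 10 transcripts with the largest positive and the 10 with the largest negative called gate difference. Each point is a library, CD45high in red above CD45low in blue; for Gm10872 the CD45high libraries lie at 1017 to 1251 and the CD45low libraries at 0 to 26.3 before 20 is added.

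The largest negative differences were again mostly long noncoding RNAs. Gm10790 had 86.2 and 49.3 scaled reads in CD45high at D14, 0, 0 and 9.6 in CD45high at D7, 832, 567.5 and 380 in CD45low at D14, and 705, 406 and 254 in CD45low at D7. All CD45low libraries lay above all CD45high libraries, with a log2 difference of -3.52 ± 0.315 (adjusted p = 8.5e-08). G530011O06Rik reached -3.37 ± 0.46 (adjusted p = 9.56e-06), but CD45low D14 replicate 3 had 46.8 scaled reads, within the CD45high range of 0 to 49.3, while the other CD45low libraries had 436 to 561. 6720401G13Rik is now named Firre, a nuclear RNA from the X chromosome known for its part in chromosome organisation. It had 8.6 and 0 scaled reads in CD45high at D14, 9.6 to 88.3 in CD45high at D7, 297, 217 and 385 in CD45low at D14, and 241, 330 and 193 in CD45low at D7. The gates did not overlap, and the log2 difference was -3.11 ± 0.361 (adjusted p = 1.62e-06). The highest CD45high value of Firre was in D7 replicate 1, the CD45high library with the highest microglia marker sum.

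The other 7 of this group, 2810025M15Rik, E230029C05Rik, 4933421O10Rik, Gm10336, Gm5086 and the RefSeq pseudogenes Gm10409 and Zfp862-ps, had log2 differences between -3.36 and -2.42 and no overlap between the gates. 2810025M15Rik is a long noncoding RNA in RefSeq but a transcribed processed pseudogene in GENCODE M21. It matched the Mir682 hairpin at 68 of 81 aligned bases. Gm5086 lies next to Enc1, which was lower at -3.05 ± 0.346, and 2810025M15Rik overlaps the span of Rasal2, a Ras GTPase regulator, which was lower at -2.18 ± 0.307. The sources used here do not give whether counting used strand, and reads of overlapping genes cannot be told apart. For 69 called transcripts the nearest protein-coding gene in RefSeq was tested, and 45 of these genes were called, 35 in the direction of the transcript beside them. Among all rows 60.5% were called. No share agreeing in direction was computed for other pairs of rows, so the 35 has no background to be set against. The pairs are not independent, since Pkd2 is nearest to both BC005561 and D930016D06Rik, and Rplp2-ps1 and Wdr89 share nearly all reads. Other pairs overlap in span, such as D330041H03Rik and Abca3, whose rows differ by 4.76% of reads. Shared regulation was not tested.

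The promoters of F630028O10Rik and Gm10790 are shown (RefSeq, build GRCm38.p6, 250 bases before to 50 after the annotated start). They were picked because they stand for opposite gate differences and each holds a match to a myeloid factor's motif. Promoters without a match are named below the sequences. The capitals mark, in F630028O10Rik, an IRF motif (GAAA, any 2 bases, GAAA) and, in Gm10790, a C/EBP motif TTGCNNAA, searched on both strands, where N is any base.
F630028O10Rik (chrX:96239676-96239975, plus strand): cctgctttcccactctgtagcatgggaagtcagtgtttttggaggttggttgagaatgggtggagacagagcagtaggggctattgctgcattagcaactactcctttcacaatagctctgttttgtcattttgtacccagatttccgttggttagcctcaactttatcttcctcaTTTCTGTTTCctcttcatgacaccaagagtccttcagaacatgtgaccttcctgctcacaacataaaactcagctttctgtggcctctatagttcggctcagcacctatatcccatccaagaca
Gm10790 (chr13:41865665-41865964, plus strand): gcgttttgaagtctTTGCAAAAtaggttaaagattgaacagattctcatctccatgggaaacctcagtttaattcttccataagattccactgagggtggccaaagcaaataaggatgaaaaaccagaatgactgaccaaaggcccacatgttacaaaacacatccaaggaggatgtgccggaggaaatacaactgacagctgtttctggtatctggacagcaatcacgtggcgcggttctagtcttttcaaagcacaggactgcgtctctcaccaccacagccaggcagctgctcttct

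In all 32851 promoters of that length, 3.44% held the IRF motif and 10.8% the C/EBP motif. Of the called transcripts with a promoter in that table, 2 of 25 higher and 0 of 40 lower in CD45high held the IRF motif, and 5 of 25 and 5 of 40 the C/EBP motif. The PU.1 motif GAGGAAGT, present in 3.2% of all promoters, stood in 4 of 25 and 0 of 40. The NF-kappaB motif, present in 1.47% of all promoters, stood in 0 of 25 and 0 of 40. The MEF2 motif (3.69% of all promoters) and the TATA box (13.6%) each stood in 2 of 25 and 2 of 40. The promoters of Malat1, 1700047M11Rik, Gm10684 and Firre held none of the motifs searched. That of G530011O06Rik, lower in CD45high, held a C/EBP motif. A match says only that these letters stand in the window.

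Of the other transcripts that hold microRNA genes, Dleu2 and Mir22hg were also higher. Dleu2 holds Mir15a and Mir16-1, and Mir22hg holds Mir22; the mature sequences below, from RefSeq with the seed in capitals, show that miR-15a and miR-16 share a seed while miR-22 and miR-223 have their own.
miR-15a-5p (chr14:61632075-61632096, minus strand): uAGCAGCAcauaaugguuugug
miR-16-5p (chr14:61631936-61631957, minus strand): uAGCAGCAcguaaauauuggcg
miR-22-3p (chr11:75463772-75463793, plus strand): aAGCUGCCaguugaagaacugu
miR-223-3p (chrX:96242884-96242905, plus strand): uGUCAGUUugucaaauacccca

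Mir22hg had 525.6 and 454 scaled reads in CD45high at D14, 383, 314 and 376 in CD45high at D7, 185, 160 and 182 in CD45low at D14, and 235, 183 and 132 in CD45low at D7. The gates did not overlap, with a log2 difference of 1.15 ± 0.21 (adjusted p = 1.84e-04). Dleu2 ranged from 711 to 1542 scaled reads in CD45high and from 351 to 762 in CD45low, an overlap of 1 library on each side, with 0.96 ± 0.193 (adjusted p = 4.48e-04). In all, the RefSeq spans of 8 transcripts hold 10 microRNA genes, and 3 of these transcripts were higher, 1, B4galt1, was lower and 4 did not pass. Among all rows 24.4% were higher and 36.1% lower.

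Of the 7 microRNA loci, 4 were higher, 1 was lower and 2 did not pass, beside 24.4% higher and 36.1% lower among all rows. Mir703 had 1362 and 1431 scaled reads in CD45high at D14, 1133, 1244 and 1205 in CD45high at D7, 812, 825 and 655 in CD45low at D14, and 745, 796 and 833 in CD45low at D7. Every CD45high library was above every CD45low library. Its log2 difference of 0.72 ± 0.126 (adjusted p = 1.27e-04) stood beside 0.72 ± 0.111 for Eef1a1, whose transcript matches 107 of the 109 hairpin bases. Mir682 gave 0.95 ± 0.147 beside 1.00 ± 0.133 for Rpl37a, and Mir692-2a gave 0.72 ± 0.243 beside 0.82 ± 0.128 for Ftl1. Mir692-2a and Mir692-2b had the same 403 reads, so they are 1 measurement, and their call was lost without CD45high D14 replicate 2 (0.55, adjusted p = 0.108). Mir678 was lower, at -1.76 ± 0.39 (adjusted p = 0.00102), and Prmt2, which contains it, at -1.45 ± 0.23. Mir142b (0.34 ± 0.27, adjusted p = 0.287) and Mir684-1 (0.04 ± 0.194, adjusted p = 0.879) did not pass the threshold.

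Rplp2-ps1, a copy of the ribosomal protein gene Rplp2, had 7359 and 8044 scaled reads in CD45high at D14, 9421, 8604 and 7883 in CD45high at D7, 4240, 3436 and 3626 in CD45low at D14, and 4048, 3795 and 5486 in CD45low at D7. The gates did not overlap, and its log2 difference was 1.00 ± 0.119, beside 0.90 ± 0.121 for Rplp2 and 1.00 ± 0.119 for Wdr89, whose row differs from it by 0.177% of reads. Oaz1-ps gave 1.19 ± 0.117 and Oaz1, an inhibitor of polyamine synthesis, 1.17 ± 0.119, and Gm1821, a ubiquitin B pseudogene, gave 0.40 ± 0.107 beside 0.41 ± 0.108 for Ubb. Atp6v0c-ps2 gave 0.58 ± 0.118 and Gm15772 0.90 ± 0.168. Rps15a-ps4 and Rps15a-ps6 gave 1.35 ± 0.325 and 1.61 ± 0.299 beside 1.33 ± 0.415 for Rps15a. Pisd-ps1 and Pisd-ps3 gave -1.31 ± 0.247 and -1.32 ± 0.248 beside -0.54 ± 0.189 for Pisd, a mitochondrial phospholipid enzyme, and they differed from each other by 0.0712% of their reads. Whether a pseudogene and its parent differ was not tested.

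**Figure D4:**
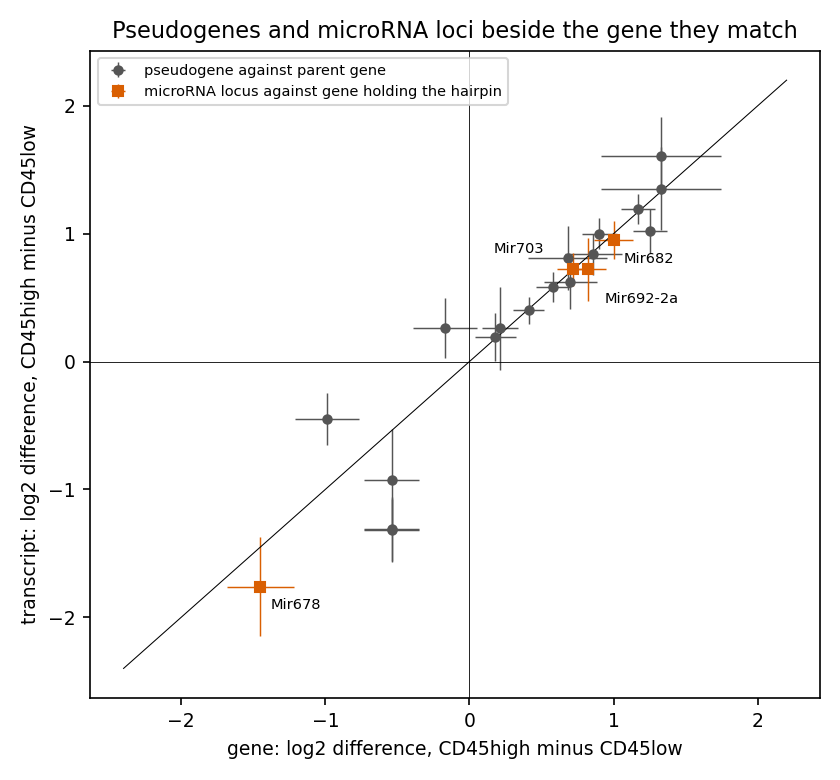
Log2 gate difference (CD45high minus CD45low) of pseudogenes and microRNA loci on the y axis against that of a matching gene on the x axis. The matching gene is the parent gene, or the gene whose transcript holds all or nearly all bases of the hairpin. Whiskers are standard errors and the line marks equal differences; Mir703 lies at 0.72 with Eef1a1 at 0.72 and Mir678 at -1.76 with Prmt2 at -1.45.

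For 15 of the 190 transcripts another row of the table differed by at most 3% of its reads, a limit set after the values were seen. Atp6v0c-ps2 had the same 4779 reads as Atp6v0c, a subunit of the vacuolar proton pump, and Gm6644 the same 390 reads as Akr1b3. Gm15772 had 2868 reads and Rpl26 2873. Among the others, Rplp2-ps1 had 7914 reads and Wdr89, whose span it overlaps, 7928, and Oaz1-ps differed from Oaz1 by 2.37% of reads. In 9 of the 15 cases the other row was in the count table, and in 6 it was another of the 190 transcripts. Over the remaining transcripts the nearest row differed by a median of 13.4% of reads. The 15 rows are uncertain as measurements of their own transcript.

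Transcripts that host small nucleolar RNAs, which guide the modification of ribosomal RNA, were lower or did not pass. Of 9 genes named as hosts, 4 were lower and none was higher in CD45high, beside 36.1% lower and 24.4% higher among all rows. By its RefSeq span 1 of these, Snhg20, holds a microRNA gene and no small nucleolar RNA gene. Their median log2 difference was -0.49, and -0.23 over all rows. Snhg12 had 181 and 98.7 scaled reads in CD45high at D14, 103, 113 and 96.4 in CD45high at D7, 343, 144 and 551 in CD45low at D14, and 414, 406 and 464 in CD45low at D7. CD45low D14 replicate 2 lay within the CD45high range, and the log2 difference was -1.46 ± 0.294 (adjusted p = 4.43e-04). 9430008C03Rik, now Snhg17, was lower at -1.34 ± 0.253 without overlap. Gas5, known to rise in growth-arrested cells, had 1620.0 and 730.3 scaled reads in CD45high at D14, 589, 716 and 810 in CD45high at D7, 1420, 1274 and 1144 in CD45low at D14, and 1181, 1076 and 1358 in CD45low at D7. The highest of all Gas5 values was in CD45high D14 replicate 1, and its log2 difference of -0.49 ± 0.182 (adjusted p = 0.0277) was lost in 8 alternatives, among them TMM factors (-0.33, adjusted p = 0.139), DESeq2 (-0.26, adjusted p = 0.31) and the fit without CD45high D14 replicate 2 (-0.21, adjusted p = 0.285). Leaving out CD45high D7 replicate 1 (-0.43), CD45low D14 replicate 1 (-0.45) or CD45low D7 replicate 3 (-0.45) also ended it, with adjusted p between 0.0545 and 0.0626. 1810032O08Rik, now Snhg16, was lower at -0.69 ± 0.281 (adjusted p = 0.0444), a call lost in 17 alternatives, among them DESeq2 (-0.64, adjusted p = 0.15), the replicate block (-0.58, adjusted p = 0.142) and the leaving out of any of 8 single libraries, with adjusted p between 0.0193 and 0.15 over all settings. Snhg1 (-0.71), Snhg5 (-0.41), Snhg6 (-0.18), Snhg8 (0.15) and 2810008D09Rik, now Snhg20 (0.22), did not pass. Snhg1 passed with the replicate block (-0.94, adjusted p = 0.0339) and without CD45high D7 replicate 2 (-0.97, adjusted p = 0.0159) or CD45low D14 replicate 3 (-0.94, adjusted p = 0.0282). In RefSeq 11 of the 190 transcripts hold 35 small nucleolar RNA genes, and 4 of the 11 were lower in CD45high, a share near the 36.1% of all rows.

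Of 3 imprinted RNAs, Kcnq1ot1, an antisense RNA that silences its neighbours on the paternal chromosome, was lower. It had 138 and 158 scaled reads in CD45high at D14, 162, 50.2 and 57.8 in CD45high at D7, 370 to 516 in CD45low at D14, and 324 to 448 in CD45low at D7. The gates did not overlap, and the log2 difference was -1.69 ± 0.269 (adjusted p = 5.02e-05). Peg13 (-0.58 ± 0.271, adjusted p = 0.0726) and Meg3 (0.71 ± 0.365, adjusted p = 0.105) did not pass. Meg3 passed with the first number of the title as a block (0.83, adjusted p = 0.00871) and without CD45low D7 replicate 3 (1.02, adjusted p = 0.0103). Peg13 passed without CD45high D14 replicate 2 (-0.84, adjusted p = 0.0269) or CD45high D7 replicate 1 (-0.71, adjusted p = 0.0325).

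Other long noncoding RNAs with a known role gave mixed results. 1700020I14Rik, or Oip5os1, known for the decay of miR-7, was higher in CD45high, at 1.55 ± 0.327 (adjusted p = 6.76e-04), with 250.2 to 366 scaled reads in CD45high and 25.8 to 149 in CD45low. 2900097C17Rik, or Norad, which binds Pumilio proteins, gave 0.05 ± 0.214 (adjusted p = 0.838), and Tug1 gave -0.04 ± 0.335 (adjusted p = 0.924), which TMM factors turned to 0.1. The transcripts that follow are named for their high mean and not for a known role. LOC100503496 was lower, with 836 to 1119 scaled reads in CD45high and 2528 to 2866 in CD45low, at -1.44 ± 0.108 (adjusted p = 1.29e-08). Its span overlaps that of Slc16a6, which gave -1.5 ± 0.108. 6820431F20Rik, a pseudogene, was lower at -1.14 ± 0.14 without overlap, and Gm20605 gave 0.07 ± 0.13 (adjusted p = 0.642).

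Smaller groups were divided. Of 7 transcripts named for lying opposite a gene, 1 was higher and 3 were lower in CD45high, and of 4 readthrough transcripts 2 were lower. Among all rows 24.4% were higher and 36.1% lower, so these small counts say little. Rn4.5s, a small RNA of rodents, was lower at -1.36 ± 0.351 (adjusted p = 0.0032), and Snora78 gave -0.05 (adjusted p = 0.908), a sign that TMM factors turned (0.09).

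Among the genes annotated as protein coding, 3 of 4 histone H2A genes were higher in CD45high, where 24.4% of all rows were. Hist1h2ad had 2275 and 3020 scaled reads in CD45high at D14, 2885, 3718 and 3633 in CD45high at D7, 826, 640 and 718 in CD45low at D14, and 1148, 837 and 806 in CD45low at D7. The gates did not overlap, and the log2 difference was 1.84 ± 0.142 (adjusted p = 1.64e-08). Hist1h2af and Hist1h2ai gave 2.01 ± 0.194 and 1.99 ± 0.182, and Hist2h2ab gave -0.18 ± 0.283 (adjusted p = 0.593). The rows of Hist1h2ai and Hist1h2af differed by only 5.36% of reads, so they may not be separate measurements. All 6 cell cycle markers were higher in CD45high as well, with sums of 4705 to 8317 scaled reads in CD45high and 284 to 596 in CD45low, and their part in the histone values was not tested. The groups by role were drawn up with earlier results of these data known.

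At D14 alone 82 transcripts differed between the gates, 44 higher and 38 lower in CD45high, against 40.8% of all rows, 19.5% higher and 21.3% lower. At D7 alone 117 did, 54 higher and 63 lower, against 51.8% of all rows, 20.8% higher and 31% lower, and with DESeq2 on the recovered reads the D7 split was 58 higher and 43 lower. The 78 transcripts called at both labels had the same direction at both, 43 higher and 35 lower. D14 has 2 CD45high libraries and D7 has 3, so the counts are not a comparison of the labels. The difference between the gate differences passed for 0 of the 190 transcripts and 0% of all rows, with 12 of the 190 at an unadjusted p under 0.05 by limma, and edgeR and DESeq2 also called 0. The lowest p belonged to 2810025M15Rik (2.11, adjusted p = 0.626) and Ear7 (-2.74, adjusted p = 0.744).

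Between D14 and D7 in CD45low, 0 of the 190 transcripts and 0% of all rows passed, with 14 of the 190 at an unadjusted p under 0.05, and edgeR on the recovered reads also called 0 of the 190. The lowest p was that of Meg3. It had 79.2, 165 and 208 scaled reads in CD45low at D14 and 202, 492 and 1201 at D7, and 172 and 286 in CD45high at D14 and 604, 980 and 1214 at D7. The D14 and D7 ranges of CD45low just overlap, and in CD45high they do not. The log2 difference in CD45low was -1.68 ± 0.487 (adjusted p = 0.429 by limma), and DESeq2 gave -2.14 (adjusted p = 0.0283). Among the other lowest p, Arhgap27os3 gave 1.28 ± 0.46 (adjusted p = 0.603) and AI662270 gave -1.22 ± 0.417 (adjusted p = 0.577). Gm13363 (0.87), 1600020E01Rik (0.83) and 6820431F20Rik (0.59) had adjusted p between 0.542 and 0.587. Choroid plexus epithelium markers moved with D in this gate, at sums of 9224 to 13384 scaled reads in CD45low at D14 and 2410 to 5145 at D7, and neutrophil markers the other way, at 6232 to 9212 at D14 and 12039 to 61768 at D7. Neuron markers summed to 36.4 to 124 scaled reads in CD45low at D14 and 224 to 447 at D7. In CD45high they summed to 190 to 237 at D14 and 206 to 463 at D7. None of the 8 neuron markers reached the mean needed for testing. The part of these cell types, also in the Meg3 values, was not tested.

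Between D14 and D7 in CD45high, 1 of the 190 transcripts passed, higher at D14, against 0.104% of all rows, 0.0806% higher and 0.023% lower, and 31 had an unadjusted p under 0.05. 2810025M15Rik had 155 and 168 scaled reads in CD45high at D14 and at most 38.5 at D7, and 614, 428 and 671 in CD45low at D14 and 638, 538 and 649 at D7. Both CD45high D14 libraries lay above all CD45high D7 libraries and below all CD45low libraries. The log2 difference in CD45high was 2.01 ± 0.343 (adjusted p = 0.031), and it did not pass with TMM factors (1.95, adjusted p = 0.0525), with edgeR (2.39, adjusted p = 0.1), with DESeq2 (2.39, adjusted p = 0.0759), or without CD45high D14 replicate 1 (2.06, adjusted p = 0.336). Without CD45high D14 replicate 2 (1.96, adjusted p = 0.137) the call was also lost. Rasal2, whose span it overlaps, gave -1.39 (adjusted p = 0.208).

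Ear7 and Malat1 had negative D14 differences in this gate that did not pass the threshold in the limma fit and did pass in some alternatives. Ear7 had 25.9 and 148 scaled reads in CD45high at D14 and 412, 1017 and 665 at D7, and at most 10.1 in any CD45low library. Its log2 difference was -2.94 ± 0.566 (adjusted p = 0.0548), and it passed in 6 alternatives, with adjusted p between 0.014 and 0.442 over all settings. Among these was the replicate number as a block (-2.97, adjusted p = 0.0399), which joins D14 and D7 libraries whose titles share no other number. Malat1, whose values are given above, gave -0.68 ± 0.163 in CD45high (adjusted p = 0.0844) and -0.11 ± 0.146 in CD45low (adjusted p = 0.934), and the difference between these was -0.57 ± 0.218 (adjusted p = 0.831). In CD45high Malat1 passed with DESeq2 (-0.85, adjusted p = 0.0173), which called it alone among the 190, with robust limma (-0.68, adjusted p = 0.0435), and without CD45high D7 replicate 1. Its adjusted p in CD45high reached 0.53 over all settings. Neat1 gave 0.09 ± 0.192 in CD45high (adjusted p = 0.869), and TMM factors turned its sign (-0.03). The other lowest p belonged to 4933421O10Rik (1.5 ± 0.352, adjusted p = 0.08), 6820431F20Rik (0.88 ± 0.209, adjusted p = 0.0803) and Gm10790 (1.91 ± 0.469, adjusted p = 0.0894).

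The count of transcripts that passed depended on single libraries. It was 0 without CD45high D14 replicate 1, without CD45low D14 replicate 1, 2 or 3, or without CD45low D7 replicate 1 or 2. It was 1, Ear7, without CD45high D14 replicate 2. Without CD45high D7 replicate 1 it was 7, while of all 8681 rows 165 were then higher and 11 lower at D14, against 7 and 2 with it. Of these 7, 2810025M15Rik (1.82), Gm5086 (1.81), Gm10409 (1.62), 1700113A16Rik (1.00) and 6820431F20Rik (0.99) were higher and Ear7 (-3.26) and Malat1 (-0.78) lower at D14. That library had the highest microglia marker sum of CD45high, 34046 scaled reads, and its part was not tested. Neutrophil markers summed to 123783 and 153618 scaled reads in CD45high at D14 and to 189324 to 217983 at D7, and their part was not tested.

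**Figure D5:**
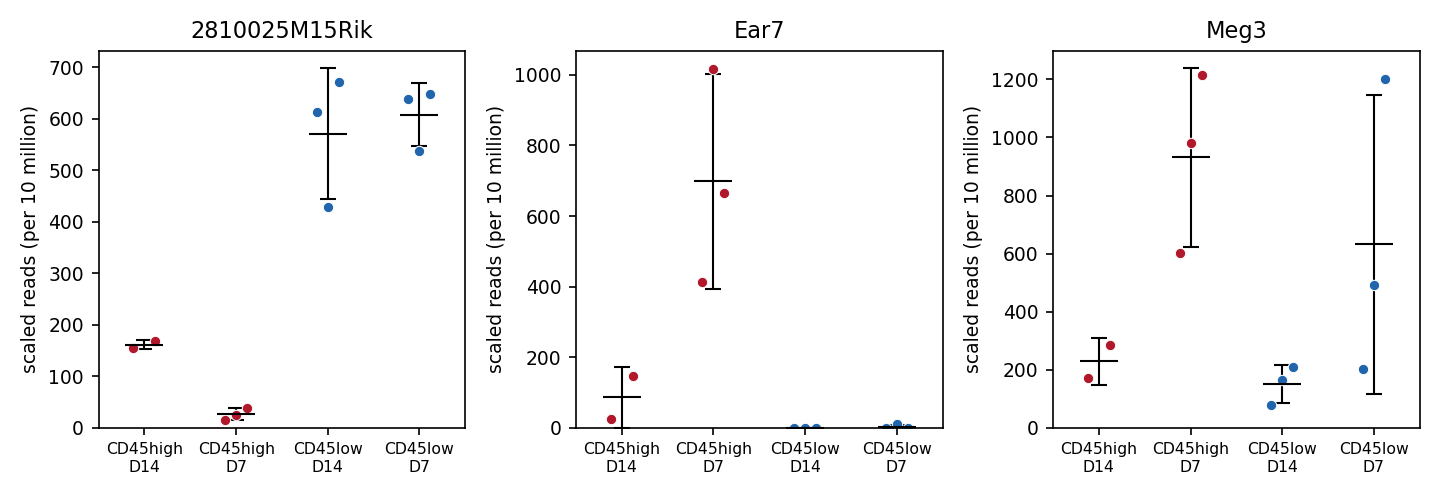
Scaled reads of 2810025M15Rik, Ear7 and Meg3 in each sorted library, by gate and D label. Points are libraries, the bar is the mean and the whiskers are the SD; in CD45high, 2810025M15Rik lies at 155 and 168 at D14 and at most 38.5 at D7, and Ear7 at 25.9 and 148 at D14 and 412 to 1017 at D7.

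B4galt1, a galactosyltransferase, and Zfx, an X-linked zinc finger factor, are among the 190 because the scaled table writes their symbols as long strings of names. Both genes stand in the count table under their short symbols. In the sorted cells B4galt1 had 595 and 494 scaled reads in CD45high at D14, 604, 653 and 732 in CD45high at D7, and 760 to 1517 in CD45low, with a log2 difference of -0.81 ± 0.147 (adjusted p = 1.75e-04). Zfx gave -0.86 ± 0.216 (adjusted p = 0.00262).

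In the choroid plexus neither of them changed past the threshold in any comparison, 0 of 2 against 0% of all 9870 rows tested. B4galt1 averaged 394 ± 27.1 scaled reads with anti-PD-1 (SD, n = 5), 328 ± 84.4 with IgG (SD, n = 5) and 390 ± 47.5 untreated (SD, n = 4). Its log2 difference was 0.28 ± 0.143 for anti-PD-1 against IgG (adjusted p = 1 by limma) and 0.05 ± 0.158 for anti-PD-1 against untreated (adjusted p = 0.998). Zfx averaged 260 ± 26.8 scaled reads with anti-PD-1 (SD, n = 5), 231 ± 26.9 with IgG (SD, n = 5) and 238 ± 22.8 untreated (SD, n = 4), with 0.16 ± 0.135 for anti-PD-1 against IgG (adjusted p = 1). For IgG against untreated the log2 differences were -0.23 ± 0.158 for B4galt1 and -0.06 ± 0.149 for Zfx. The 188 other transcripts were not analysed in the choroid plexus.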

How the data were processed

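The libraries were 3′-end libraries of polyadenylated RNA, 11 of sorted cells and 14 of choroid plexus. Per the submitters' processing notes, Bowtie2, HOMER and build mm9 were used; the sources used here give no versions and no use of strand. The authors deposited whole-number counts per transcript, and tables of normalised signal that the authors scaled to 10000000 reads per library. The symbols of the 190 transcripts are not in the count table, although 4 of their genes are there under another name, so the scaled signal was used, and the count table served to find absent symbols. Dividing by the value of 1 read gave whole reads for 100% of values within 0.05, and edgeR on these reads called 116 of the 190 between the gates. In sorted cells these reads do not always equal the deposited counts. B4galt1 had 271 recovered reads and 253 counts in CD45low D7 replicate 1. In CD45high D7 replicate 2 it had 52 of each. The reason was not tested.

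Rows with a mean of at least 100 were tested with limma 3.58.1 (R 4.3.3) on log2 of the scaled value plus 20, which understates changes of low rows. The fit had a mean per group (choroid plexus: also the letter M or F of the title). The last number of the choroid plexus titles, which is not the same across the groups, was not in the fit. Benjamini-Hochberg adjustment covered all rows, with a threshold of 0.05. Alternatives were edgeR 4.0.16, DESeq2 1.42.0, other scalings, added values, filters, a block and leaving out each library. The block, called the replicate block, was the first number of the title for the gate comparisons. For D14 against D7 and the choroid plexus it was the replicate number, and libraries of D14 and D7 joined by it share no title number. The fit was tested on simulated data. Named transcripts are Malat1, Neat1, the 10 of highest mean, the 10 largest called gate differences each way, the 6 of lowest p for each D comparison, and those with a known role. The members and lists were chosen with earlier results of these data known. Within each group, every pair of libraries differed by more than sampling noise, with a chi-square per degree of freedom of 2.93 to 6.27 in sorted cells and 2.54 to 5.46 in choroid plexus; pairs across groups were not compared.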

Additional observations from a re-analysis of the deposited data

How the results depend on the processing

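The count of transcripts called between the gates, 122, was 116 to 124 under other settings and 110 to 122 without 1 library. At D7 the count of 117 became 101 to 118 and 89 to 113, and at D14 the count of 82 became 71 to 88 and 57 to 88. The 1 transcript called for D14 against D7 in CD45high became 0 with TMM factors, edgeR or equal medians, 2 with a mean of at least 20 or with 50 added, 3 with robust limma, and 0 to 7 without 1 library. In CD45low the count of 0 became 1 with DESeq2. The causes were not tested. A block by the first number of the title, which a CD45high and a CD45low library share, gave 118 calls between the gates. For D14 against D7 the block was the replicate number, which joins libraries of unlike title numbers, and it gave 2 calls in CD45high. After the group means were removed, same-numbered libraries of the gates correlated at 0.034 to 0.083, none over 0.1, and differently numbered ones at -0.067 to 0.016. The higher values of all same-numbered pairs are a hint of pairing from the data, which the labels do not state, so the block was not used in the reported values.

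Some values near 0 changed sign, and none of these was past the threshold. With DESeq2 and edgeR, 2410004N09Rik gave 0.01 and Snhg6 0.04 between the gates. Snora78 gave 0.13 with DESeq2, 0.12 with edgeR, 0.09 with TMM factors and 0.08 with equal medians, and Tug1 gave 0.03, 0.01, 0.1 and 0.08. Neat1 for D14 against D7 in CD45high gave -0.07, -0.04, -0.03 and -0.05. With the block, 2900097C17Rik gave -0.05, Gm20605 -0.0, Mir684-1 -0.01 and Zfx for IgG against untreated 0.0. Without 1 library, the gate difference was -0.47 to 0.08 for 2410004N09Rik, -0.05 to 0.16 for 2900097C17Rik, -0.0 to 0.16 for Gm20605, -0.01 to 0.12 for Mir684-1, -0.42 to 0.07 for Snhg6, -0.22 to 0.12 for Snora78 and -0.31 to 0.18 for Tug1. Neat1 gave -0.02 to 0.22 for D14 against D7 in CD45high and -0.14 to 0.1 for the difference of gate differences, and B4galt1 -0.03 to 0.15 for anti-PD-1 against untreated.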
